A study of Mus musculus with 8 samples.

Results

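The genes examined here encode the enzymes that remove N6-methyladenosine (m6A) from RNA and methyltransferases that act without the METTL3-METTL14 complex. Of these methyltransferases, PCIF1 places the related mark m6Am and the others place m6A. The 6 genes were taken as a fixed set by function: the erasers Fto and Alkbh5, and the methyltransferase genes Mettl16, Mettl5, Zcchc4 and Pcif1. Every m6A peak listed under the Ensembl identifier of one of these genes was used, which gave 16 of the 27612 peaks of the Dox table and 18 of the 25815 peaks of the Ctrl table. All 6 genes had peaks in both tables, as did 79.9% of the 13110 identifiers with a peak in either. The peaks came from mouse embryonic stem cells in which doxycycline (Dox) switches on a knockdown of Setd2, the gene of a histone H3 methyltransferase. The Dox group received 1 µg/ml doxycycline for 4 days, and the Ctrl group, the same cells, received none. Both grew feeder-free as spheres in serum-free 2i medium, which held LIF at 1000 U/ml, the MEK inhibitor PD0325901 at 1 µM and CHIR99021, which inhibits GSK3, at 3 µM. Each group had 2 antibody-enriched (IP) libraries and 2 input libraries, 8 in all, and the labels do not say whether the replicates were separate cultures. No Dox-treated cells without the knockdown construct were analysed here, so Dox and the knockdown cannot be told apart. The tables give no level of Setd2 RNA by which the knockdown could be checked.

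FTO and ALKBH5 are oxygen-dependent dioxygenases of the AlkB family that take the methyl group off adenosine, and FTO also acts on m6Am, the methylated adenosine next to the cap of many messenger RNAs. PCIF1 is the enzyme that writes m6Am. METTL16 methylates the U6 spliceosomal RNA and hairpins in the Mat2a messenger RNA, METTL5 methylates the RNA of the small ribosomal subunit together with TRMT112, and ZCCHC4 methylates the RNA of the large subunit. The peaks below lie on the messenger RNAs that encode these enzymes, not on the enzymes' own RNA targets. Antibodies raised against m6A also bind m6Am, so signal at a transcript's first base can hold either mark.

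A peak is a stretch of exons where IP reads exceed input reads, listed by the authors with exomePeak as 1 table per condition, on both replicates together. The fold of a peak is the authors' ratio of IP over input, and its log10 FDR their measure of support, with lower values for better supported peaks. The 2 tables were called separately, so folds are given within their own table, and no difference between the conditions could be tested because no value per replicate was analysed here. Over all peaks the median fold was 3.51 in the Dox table and 4.62 in the Ctrl table. Read depth is unknown, and the level of each transcript cannot be read from its peaks. Where a peak of a gene has several exonic blocks, they are written as 1 span from its first to its last base in mm10.

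Control peaks overlapped the first 50 transcribed bases of 3 of the 6 genes, Fto, Mettl5 and Pcif1, and a Dox peak those of Mettl5 alone. Of all 17492 protein-coding genes with an annotated start, 9.28% had it under a Dox peak and 14.0% under a Ctrl peak, counted over the first 50 transcribed bases. Those 17492 include genes without any peak, whereas all 6 genes here had peaks in both tables, so the shares are not like for like. The sequences around the starts of Fto, Mettl5 and Pcif1 are shown because peaks of the 2 conditions differ there. Each run holds 60 bases upstream and the first 30 transcribed bases, 5′ to 3′ on the gene's strand, from RefSeq (GRCm38.p6, the assembly of mm10). Capitals mark the bases under a control peak. They lie at chr8:91313465-91313554 on the plus strand for Fto, chr2:69885586-69885675 on the minus strand for Mettl5, and chr2:164879308-164879397 on the plus strand for Pcif1.
Fto: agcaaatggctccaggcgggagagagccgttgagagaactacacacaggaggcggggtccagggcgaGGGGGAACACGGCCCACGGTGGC
Mettl5: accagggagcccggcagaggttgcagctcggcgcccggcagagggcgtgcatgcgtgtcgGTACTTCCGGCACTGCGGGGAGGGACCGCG
Pcif1: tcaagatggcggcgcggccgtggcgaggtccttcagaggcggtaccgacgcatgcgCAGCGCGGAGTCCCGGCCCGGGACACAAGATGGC

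At Fto the control peak began 7 nt past the start and covered 43 of the first 50 transcribed bases. At Mettl5 the control peak began on the first base and covered all 50, and the Dox peak began 30 nt further in and covered 20. At Pcif1 the control peak began 4 nt before the start and covered all 50, whereas the nearest Dox peak began 3443 nt downstream. Pcif1 has another annotated start at 164880052, and 47 of its first 50 bases also lay under that control peak and none under a Dox peak. The peaks of Alkbh5, Mettl16 and Zcchc4 touched none of the first 50 bases in either condition. Of the 2448 genes with their start under a Ctrl peak, 1092 (44.6%) had no Dox peak there, and of the 3 genes here Fto and Pcif1 had none, too few genes to set against that share. The Fto control peak was also poorly supported, at a log10 FDR of -2.31, against -10.0 at Mettl5 and -37.0 at Pcif1. The values of Fto and Pcif1 each belong to a peak of several blocks, 2 and 3, and not to the start alone.

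GGAC and GAAC, common forms of the m6A consensus that cannot overlap each other, were looked for in the first 50 transcribed bases on both strands. GAAC stood at position 12 of Fto, counted from the first transcribed base, and GGAC at positions 23 and 32 of Mettl5 and at position 17 of Pcif1. All 4 matches lay in bases covered by the control peak. So did 43 of the first 50 bases of Fto and all 50 of Mettl5 and of the first start of Pcif1, so this was nearly fixed beforehand. The GGAC at position 32 of Mettl5 lay under the Dox peak too. The opposite strand held 1 further GGAC, in Pcif1 at position 6. The second start of Zcchc4, under no peak, held GGAC at positions 6 and 21. Such matches are common: of all 32851 annotated starts, 18.9% had GGAC on the transcribed strand and 17.4% on the opposite one, and 14.6% and 15.1% had GAAC. The first transcribed base was A for Fto and for the second start of Pcif1, and G for Mettl5 and for the first start of Pcif1. By the listed bounds, the A of that second Pcif1 start lay under the control peak, whereas the Fto control peak began past the first base. A peak is a stretch of reads, so its bounds do not show whether the first base itself carried a mark. An A was annotated first at 34.4% of starts.

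**Figure D1:**
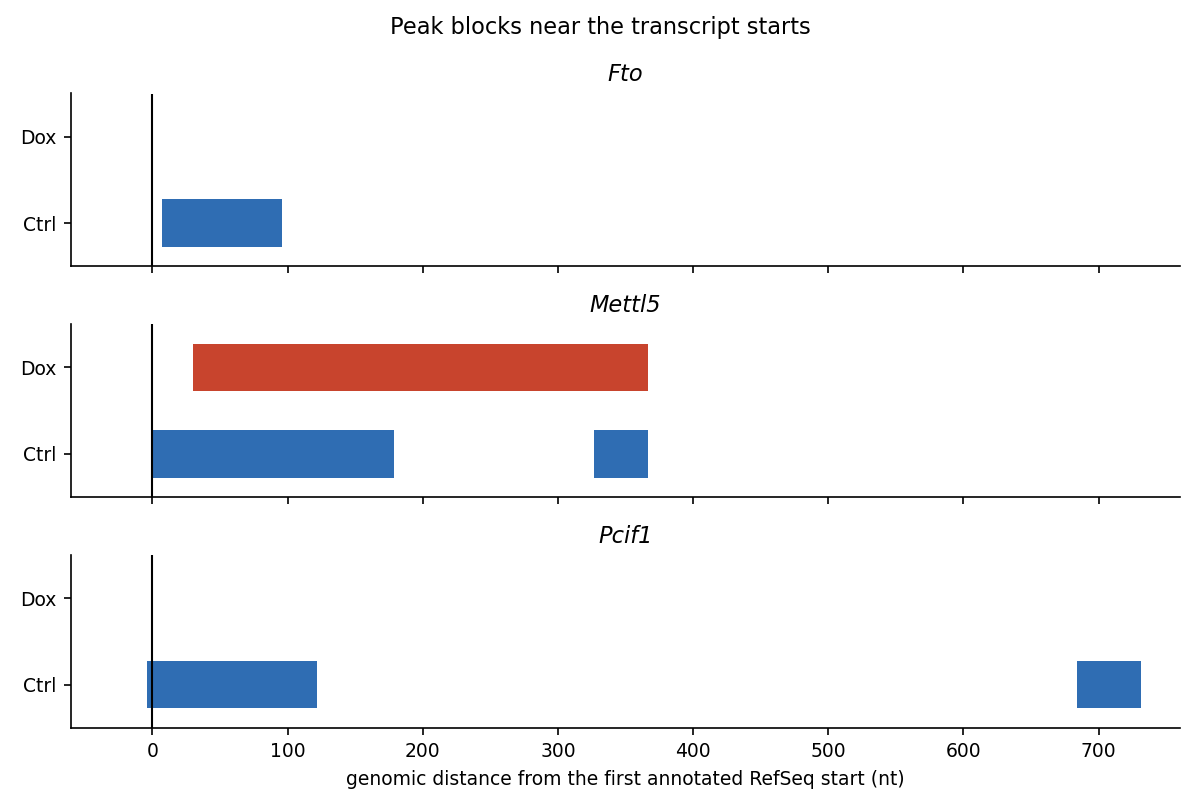
Exonic blocks under peaks near the first annotated RefSeq start of Fto, Mettl5 and Pcif1, with genomic distance from the start in nt on the x axis and the Dox row above the Ctrl row in each panel. Control blocks begin within 7 nt of the start in all 3 genes. In Dox a block begins 30 nt from the start of Mettl5 and none lies in the plotted range of Fto or Pcif1.

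Fto (ENSMUSG00000055932.14) spans 91313367 to 91668433 on the plus strand of chromosome 8, and its best supported m6A peaks were centred about 27.1% of the way along it. In Dox a single peak from 91391457 to 91441770 covered 899 exonic nt in 4 blocks, the longest of 619 nt, at a fold of 10.3 (log10 FDR -82.0). In Ctrl the same stretch carried 2 peaks. The first ran from 91391457 to 91409261 (fold 4.18, log10 FDR -13.8) and the other from 91409380 to 91441740 (fold 7.38, log10 FDR -75.4). The Dox peak thus joined both and filled the gap between them inside the longest block. Its fold was above 93.6% of Dox peaks, and that of the stronger control peak above 70.1% of Ctrl peaks.

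Near its 3′ end Fto carried weak peaks in both conditions. One, from 91667092 to 91667271, had the same bounds in both, with a fold of 1.78 in Dox and 1.97 in Ctrl. A Dox peak from 91666732 to 91666882 (fold 1.54) and a control peak from 91666373 to 91666463 (fold 1.5) did not overlap each other or any other peak. The control peak at the gene's start, from 91313532 to 91387767 over 2 blocks, had the highest fold of the gene at 13.5 and no Dox counterpart. That fold is coarse. Of control peaks with a log10 FDR above -8 and folds of 8 to 40, 77.3% lay on whole multiples of 1.23, the step that gave the highest share, and 13.5 is 10.98 such steps. A fold counted as a whole multiple when it lay within 0.0051 of one below a fold of 10 and within 0.051 from there up, which is the rounding of the listed folds.

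Alkbh5 (ENSMUSG00000042650.3; chromosome 11, 60537683 to 60558512, plus strand) carried the best supported peaks of the 6 genes. The Dox peak from 60538050 to 60554531 covered 1677 exonic nt in 4 blocks (fold 5.16, log10 FDR -116). Ctrl had 2 peaks there again. One ran from 60536620 to 60539098 (fold 10.7, log10 FDR -181) and the other from 60539188 to 60554501 (fold 4.77, log10 FDR -137). The first lies almost wholly in 1 block of 1121 nt, and its additional block of 18 nt is upstream of the RefSeq interval. The Dox peak shared 1049 nt with the first control peak and 509 nt with the other. Its fold is a single value over all 4 blocks, so it has no value of its own for the block where the control fold was 10.7. A further Dox peak, from 60556537 to 60556626, was weak (fold 1.41, log10 FDR -2.26) and had no control counterpart.

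Mettl16 (ENSMUSG00000010554.14; chromosome 11, 74770815 to 74826855, plus strand) had the same main peak in both conditions. It was a single block of 481 nt from 74817256 to 74817736. Its fold was 7.97 in Dox (log10 FDR -69.8) and 8.26 in Ctrl (log10 FDR -66.8). The log2 ratio of the Dox fold to the control fold was -0.05. Over the 1781 peaks with the same bounds in both tables, the median difference was -0.41 and 77.7% had the lower fold in Dox, and the shared 3′ peak of Fto had -0.15. The weak peaks beyond this block did not match. In Dox the weak peak ran from 74818036 to 74818126 (fold 1.54) and in Ctrl from 74818365 to 74818455 (fold 1.77), 91 nt each.

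Mettl5 (ENSMUSG00000051730.15; chromosome 2, 69871195 to 69886634, minus strand) had all of its peaks in its 5′ part, centred 7.18% to 34.1% of the way along the gene. The Dox peak from 69880925 to 69885585 covered 476 nt in 3 blocks (fold 3.42, log10 FDR -15.8). The control peaks lay at the start, from 69885437 to 69885615 (fold 9.43, log10 FDR -10.0), and further in, from 69880925 to 69885288 (fold 2.63, log10 FDR -7.91). The Dox peak overlapped both and bridged the 148 nt between them that no control peak covered. The fold of the Dox peak is a single value over all 3 blocks. The 30 nt next to the start were under the control peak alone. Bounds of a Zcchc4 peak and of the central Pcif1 peak also differed by 30 nt between the conditions.

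Zcchc4 (ENSMUSG00000029179.14; chromosome 5, 52775409 to 52824666, plus strand) had the weakest support. Of its 4 Dox peaks, the best supported lay from 52823737 to 52823887, at a fold of 3.49 (log10 FDR -5.55). The peak from 52819440 to 52819620 had a fold of 9.76 in Dox (log10 FDR -5.01), and its control counterpart, 30 nt longer, from 52819410, a fold of 15.2 (log10 FDR -8.74). The 3′ peak from 52823767 to 52823857 in Ctrl had a fold of 2.56 (log10 FDR -1.99). The remaining Dox peaks, from 52820099 to 52820189 (fold 13.0, log10 FDR -2.32) and from 52824455 to 52824545 (fold 2.4, log10 FDR -1.92), had no control counterpart. The Dox folds of 9.76 and 13.0 are coarse: they lie at 9.0 and 11.99 steps of 1.0845, on whose whole multiples, within the same tolerance, lay 80.4% of Dox peaks with a log10 FDR above -8 and folds of 8 to 40.

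Pcif1 (ENSMUSG00000039849.5; chromosome 2, 164879368 to 164891440, plus strand) kept its central and 3′ peaks and had much less under peaks at its start. The central peak, in 4 blocks of 389 nt in all, ran from 164884645 to 164885980 in Dox (fold 6.89, log10 FDR -103) and from 164884615 to 164885950 in Ctrl (fold 6.29, log10 FDR -52.0). The 3′ peak ran from 164890958 to 164891347 in Dox (fold 4.7, log10 FDR -38.2) and from 164891018 to 164891317 in Ctrl (fold 3.28, log10 FDR -13.9). At the start of the gene, the control peak from 164879364 to 164882901 covered 300 nt in 3 blocks (fold 6.68, log10 FDR -37.0). Its only Dox counterpart was a peak of 61 nt in the last of these blocks, from 164882811 to 164882871 (fold 1.52, log10 FDR -1.94). Another control peak of 60 nt, beginning at 164890899, touched the Dox 3′ peak by 1 nt.

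The last peak of Pcif1, beyond the RefSeq 3′ end, cannot be assigned to that gene with certainty. It ran from 164891944 to 164892213 in Dox (fold 2.53) and from 164892064 to 164892333 in Ctrl (fold 2.44). Zfp335, on the opposite strand, was listed with a Dox peak from 164891942 to 164892210 of the same fold, 2.53, and the same log10 FDR of -10.0, and with an overlapping control peak of fold 2.46. Over the whole tables, 71 Dox and 76 Ctrl pairs of peaks on opposite strands had both bounds within 5 nt, and 31 pairs in each table had the same fold and log10 p. The kit was stranded, but no source used here says whether the counting used strand, so peaks of overlapping genes on opposite strands cannot be told apart. Among the peaks of the 6 genes, the last ones of Pcif1 alone overlapped a peak listed on the opposite strand.

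**Figure D2:**
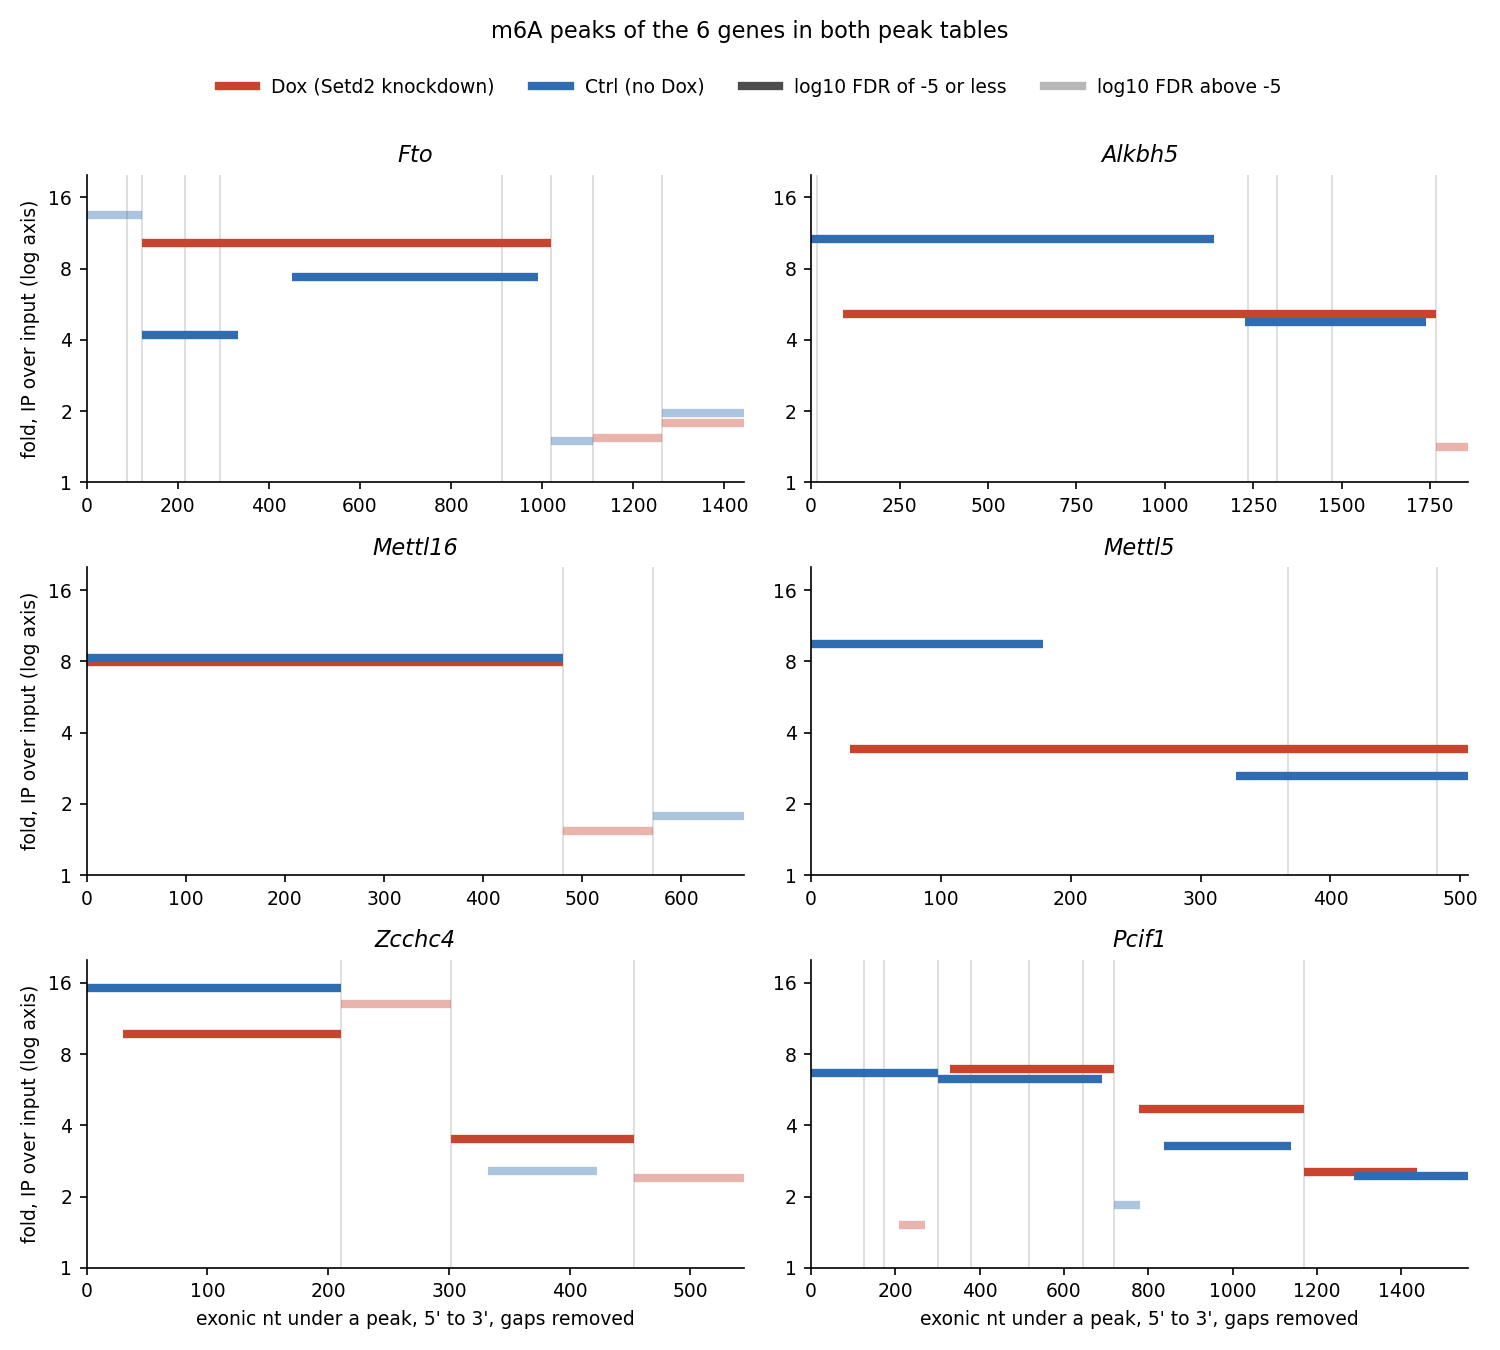
Every peak of the 6 genes, with exonic nt under any peak laid end to end from 5′ to 3′ on the x axis (grey lines mark where stretches were joined) and the fold of IP over input on a log axis. Red bars are Dox peaks, blue bars Ctrl peaks, and pale bars have a log10 FDR above -5. Single Dox bars span a pair of Ctrl bars in Fto, Alkbh5 and Mettl5, while the 481 nt bars of Mettl16 coincide.

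A Dox peak overlapped 2 or more control peaks in 4 of 16 cases, and no control peak overlapped 2 Dox peaks (0 of 18). Over the whole tables this held for 8.18% of Dox peaks and 4.93% of Ctrl peaks. The 4 were the main peaks of Fto, Alkbh5 and Mettl5 and the 3′ peak of Pcif1, whose second overlap is a single base. Several exonic blocks made up 4 of 16 Dox peaks and 8 of 18 control peaks of the 6 genes, and 42.7% and 41.2% of peaks in the whole tables. Exonic nt under peaks did not all move one way. Alkbh5 had 1767 nt under Dox peaks and 1648 nt under Ctrl peaks, 1558 of them in common. Fto had 1230 and 1143 nt in Dox and Ctrl, Mettl5 476 and 358 nt, and Zcchc4 514 and 302 nt. Mettl16 had 572 nt in each condition. Pcif1 was the one gene with fewer nt in Dox, 1110, against 1319 in Ctrl. Its ratio of Dox to Ctrl was 0.842, and over the 10481 genes with peaks in both tables the median ratio was 1.17 and 28.0% of genes had fewer nt in Dox.

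**Figure D3:**
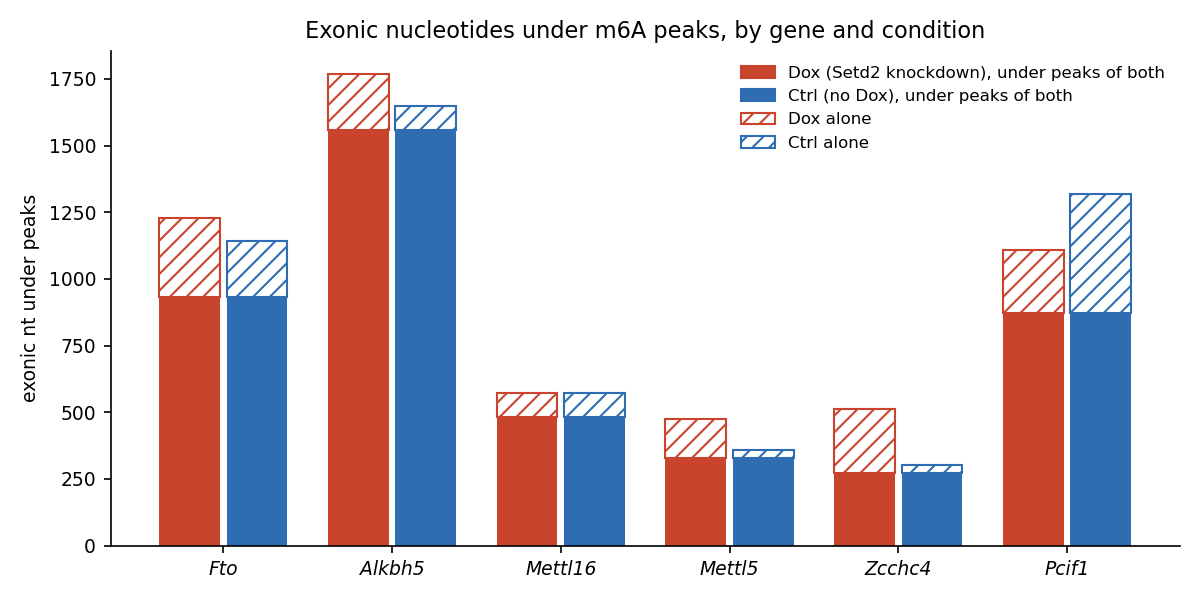
Exonic nt under m6A peaks of each gene, the Dox bar left of the Ctrl bar. Filled parts are under peaks of both conditions and hatched parts under peaks of the named condition alone, with the largest Ctrl-alone part in Pcif1 (448 nt) and the largest Dox-alone part in Fto (299 nt).

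Of the 16 Dox peaks, 5 had no overlapping control peak (31.2%, exact 95% interval 11% to 58.7%), against 29.1% of all Dox peaks. Of the 18 control peaks, 3 had no overlapping Dox peak (16.7%, 3.58% to 41.4%), against 19.3% of all Ctrl peaks. Both shares are near those of the whole tables, and the intervals are wide, although they hold counting error alone and treat each peak as independent. The unmatched peaks were short and weakly supported, at 90 to 151 nt with log10 FDRs from -3.28 to -1.78 in Dox, and 91 to 121 nt with -2.69 to -2.31 in Ctrl. At a log10 FDR of -5 or less, none of the 9 Dox peaks and none of the 12 control peaks lacked a counterpart in the full other table. The whole tables had 11.6% and 7.56% without one at that limit, and the upper interval bounds for the 6 genes are 33.6% and 26.5%. Above it, 5 of 7 Dox peaks and 3 of 6 control peaks lacked a counterpart, with 52.1% and 40.4% over the whole tables.

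**Figure D4:**
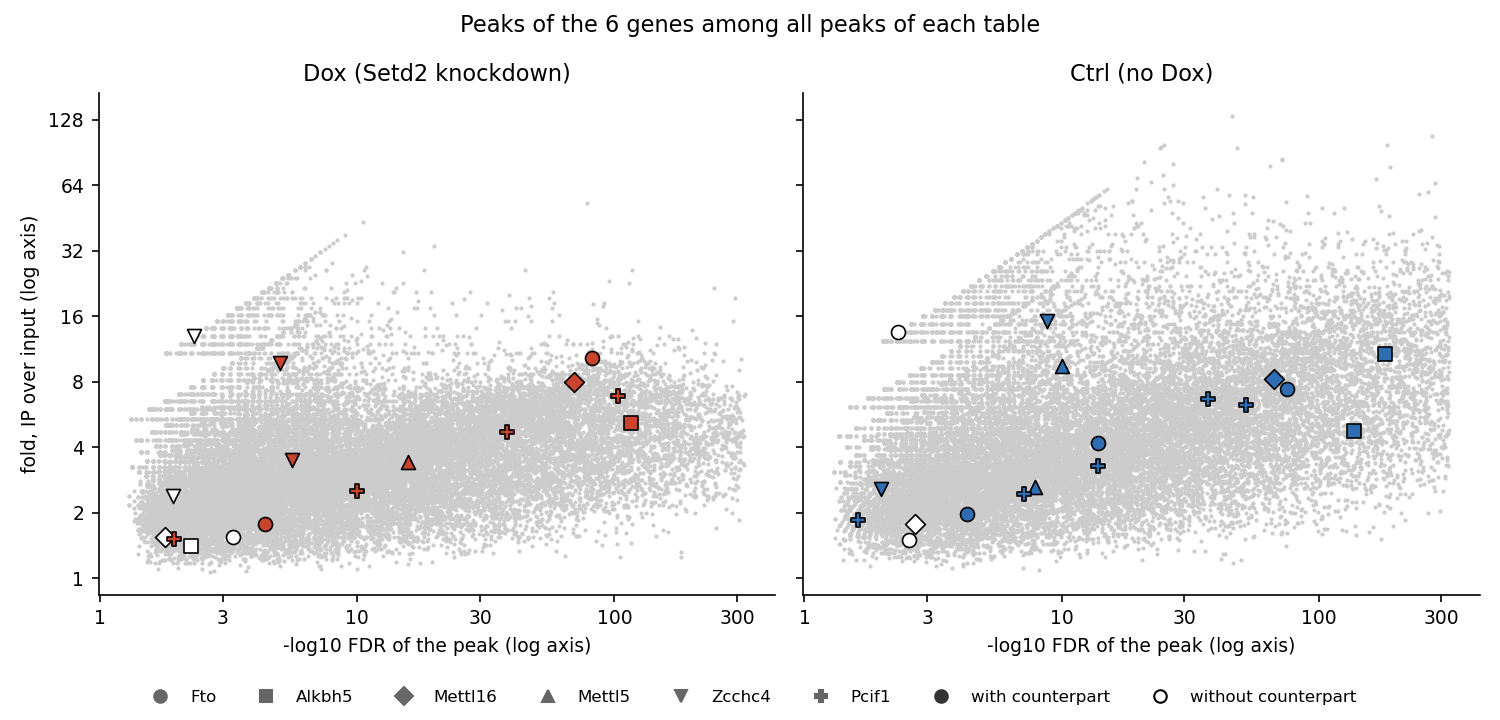
Fold of IP over input against -log10 FDR, both on log axes, for the Dox table on the left and the Ctrl table on the right. Grey points are all peaks with an FDR above 0 (27241 in Dox, 24927 in Ctrl), and symbols are the peaks of the 6 genes, filled with and open without a counterpart in the other table. All open symbols lie left of a -log10 FDR of 5.

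By its highest fold, 5 of the 6 genes stood lower in Dox than in Ctrl and Pcif1 slightly higher, at 6.89 in Dox and 6.68 in Ctrl. These Pcif1 values belong to different peaks, the central one in Dox and the start one in Ctrl. Among overlapping peaks, the central ones had 6.89 in Dox and 6.29 in Ctrl (log2 difference 0.13). Those at the start had 1.52 and 6.68 (-2.14). The median log2 difference was -0.31 for the 6 genes, against -0.52 over the 10481 genes with peaks in both tables, 73.6% of which were lower in Dox. For Alkbh5 (log2 difference -1.05) and Mettl5 (-1.46), the Dox fold is a single value over a peak that overlaps 2 control peaks. Against the other of those control peaks, with folds of 4.77 and 2.63, the Dox folds were higher, by 0.11 and 0.38. The direction for Fto rests on the coarse fold of its control start peak. From peaks with log10 FDR no higher than -5, Fto had 10.3 in Dox and 7.38 in Ctrl, a log2 difference of 0.48. In Dox the order by highest fold was Zcchc4 (13.0), Fto (10.3), Mettl16 (7.97), Pcif1 (6.89), Alkbh5 (5.16) and Mettl5 (3.42). In Ctrl it was Zcchc4 (15.2), Fto (13.5), Alkbh5 (10.7), Mettl5 (9.43), Mettl16 (8.26) and Pcif1 (6.68). The place of Fto in Ctrl rests on its start peak, and its 7.38 within the FDR limit is below Alkbh5, Mettl5 and Mettl16. The first place of Zcchc4 in Dox rests on its coarse, weakly supported peak of 91 nt. Within the FDR limit of -5 Zcchc4 had 9.76 in Dox, below Fto, and 15.2 in Ctrl, a log2 difference of -0.64 in place of -0.23. By the best supported peak of each condition it had 3.49 in Dox and 15.2 in Ctrl, a difference of -2.12. Of these, only the -0.64 compares peaks that overlap. The Dox peak of 3.49 overlapped the control peak of 2.56 instead and was higher, by 0.45. No spread over replicates is at hand to say which neighbours differ.

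Along the RefSeq intervals, no Dox peak and 1 control peak, that of Fto, were centred in the first 500 nt. In the last 1000 nt, or past the 3′ end, lay 4 Dox and 4 control peaks, all of Zcchc4 and Pcif1. The others, 12 in Dox and 13 in Ctrl, lay between. These counts understate the starts, since the interval of Mettl5 begins upstream of its annotated start and a spliced peak is placed by its midpoint. The placement of all other peaks was not computed, so no share over the whole tables stands beside these counts.

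Beyond the 6 genes, the known METTL16 target Mat2a, which encodes the enzyme that makes S-adenosylmethionine, carried 3 peaks in each condition, all with a counterpart. Its 3′ peak, from 72432829 on chromosome 6, had a fold of 2.2 (log10 FDR -26.8) in Dox and 1.61 (-9.86) in Ctrl. The next, from 72434144 to 72434324 in Dox, had a fold of 1.87 (-16.3), and its control counterpart of 61 nt one of 1.37 (-3.96). The remaining peak, near the 5′ end, had 5.42 in Dox and 14.8 in Ctrl but was weakly supported (-1.32 and -3.17) and was listed on the opposite strand too. Trmt112, the METTL5 partner gene, had 1 Dox peak (fold 2.1) that overlapped both of its control peaks (folds 3.81 and 2.56).

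In the METTL3-METTL14 complex list, 7 of 8 genes had peaks, with 4 of 25 Dox and 3 of 25 control peaks lacking a counterpart. Among readers, 8 of 10 genes had peaks, and 7 of 27 Dox and 1 of 24 control peaks lacked one. Of the other AlkB homologs, 6 of 7 had peaks, with 3 of 9 Dox and 2 of 11 control peaks unmatched. Of the other METTL genes, 14 of 17 did, with 5 of 22 and 4 of 22 unmatched. In the list of partners and S-adenosylmethionine supply, all 6 genes had peaks, and 0 of 13 Dox and 2 of 19 control peaks were unmatched. Over the whole tables, 29.1% of Dox and 19.3% of Ctrl peaks were unmatched. The median log2 difference in highest fold was -1.12 for the complex, -0.46 for readers, -0.98 for AlkB homologs, -0.46 for METTL genes and -0.95 for partners, over genes with peaks in both conditions. The highest fold was lower in Dox in 5 of 7, 6 of 8, 3 of 5, 12 of 13 and 6 of 6 of these genes, in the same order of lists. Over all genes with peaks in both tables, the median difference was -0.52 and 73.6% were lower in Dox.

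The named genes most like each of the 6, by equal peak numbers and the smallest summed log2 difference of highest fold over the 2 conditions, were Eif2ak3 for Fto (0.259), Ibtk for Alkbh5 (0.139) and Parg for Mettl16 (0.031). They were Pgam1 for Mettl5 (0.095), Grhl2 for Zcchc4 (0.264) and Ptpn14 for Pcif1 (0.024).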

How the data were processed

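Stranded m6A IP and input libraries were sequenced from mouse embryonic stem cells, per the labels' protocols. Reads were checked with FastQC 0.11.5 and TopHat2 2.1.1 and the mm10 build were used, per the submitters' processing notes. The deposited tables carry the name exomePeak, without its version or settings. The authors deposited per peak a p-value, its log10 and the log10 FDR (2 score columns), and a fold ratio of IP over input, per the file headers, pooled over both replicates. Depth is unknown. The shorter deposited lists (15500 Dox and 16914 Ctrl peaks) hold exactly the peaks whose p does not exceed 1e-05 and whose fold reaches 2.

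Each identifier was named after the RefSeq protein-coding gene (GRCm38.p6) into which its peak midpoints mainly fell (50% or more) on the same strand where RefSeq starts gave one. This named 10679 of 13110 identifiers (81.5%). Peaks were counterparts when they shared at least 1 exonic nt on the same strand (bedtools 2.31.1). Percentages have exact Clopper-Pearson 95% intervals. Calculations used Python 3.11.15, numpy 2.4.6, pandas 2.3.3, scipy 1.17.1 and matplotlib 3.10.9, and overlap calls were tested on simulated data. The genes and lists were chosen with earlier results of these data known. The text names all 6 genes, Mat2a, Trmt112 and 1 most similar gene each. Zfp335 was named after its values were seen. Alternatives were other filters, overlap rules, windows and identifier rules.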

Additional observations from a re-analysis of the deposited data

How the results depend on the processing

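No paired analysis was possible because the deposited tables pool both replicates, and no replicate could be left out for the same reason. The counts of peaks depended on the filter. The 6 genes held 9 of 16 Dox and 12 of 18 control peaks in the authors' shorter lists, and the same numbers with log10 FDR no higher than -5. With folds of 4 or more they held 7 Dox and 10 control peaks. Of all 27612 Dox peaks, 15500, 15717 and 11394 passed these filters in the same order. Of all 25815 Ctrl peaks, 16914, 16596 and 14928 did. Dox peaks without a counterpart numbered 1 of 9 in the shorter lists (22.3% of all Dox peaks there), 1 of 9 with both tables at that FDR limit (22.3%), 2 of 7 with folds of 4 or more in both tables (31.6%), and 0 of 9 when peaks at that limit were set against the full Ctrl table (11.6%). Control peaks without one numbered 1 of 12 (24.0% of all Ctrl peaks), 1 of 12 (21.0%), 3 of 10 (45.7%) and 0 of 12 (7.56%) in the same order. When the overlap had to reach 50% of the shorter peak, unmatched peaks numbered 5 of 16 in Dox (30.5%) and 4 of 18 in Ctrl (20.9%). At the FDR limit in both tables the 1 control peak is the start peak of Pcif1 and the 1 Dox peak the 3′ peak of Zcchc4, whose counterparts are weak. Over the 5 lists of other genes, 8 of 67 Dox peaks and 11 of 77 control peaks lacked a counterpart at that limit in both tables, and 19 of 96 and 12 of 101 in the full tables. Wider end windows (1000 nt and 2000 nt) placed 7 Dox peaks at the 3′ end and 3 control peaks at the 5′ end. The highest fold of Fto turned from lower to higher in Dox, by 0.48 on the log2 scale, both from peaks within the FDR limit and from its best supported peak. Alternatives chosen after seeing the data left 3 of the 4 Dox peaks that overlap 2 or more control peaks. Over all Dox peaks this held for 7.38% with the 50% overlap, 9.09% at the FDR limit in both tables and 8.76% in the shorter lists. The FDR limit and the shorter lists left 2 of the 3 control starts, without that of Fto. The share over all genes was not computed for starts at these settings. The log2 difference of Zcchc4 kept its direction and moved to -0.64 and -2.12 under the same alternatives as Fto. The -2.12 compares peaks that do not overlap, and its Dox peak was higher than its own control counterpart, by 0.45. Whole spans left the unmatched counts of the 6 genes as they were, with 29.0% of all Dox and 19.2% of all Ctrl peaks unmatched, and the wider identifier rule left their numbers of peaks as they were.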
